A study of Homo sapiens with 6 samples.

Results

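The genes described here are 8 human genes with textbook pairs of mutually exclusive exons, PKM, TPM1, TPM2, TPM3, ACTN1, ACTN4, MAPK8 and MAPK9. They were taken by name from a deposited exon annotation, which listed all 8 among its 13721 genes. Poly(A)-selected RNA had been sequenced from U-87 MG, an established human glioma line, in 3 libraries with the vehicle DMSO (10 ul in 10 ml of medium) and 3 with EPZ015666, a PRMT5 inhibitor, at 10 uM, each for 72 h. Both groups are the same cell line, and nothing in the labels says that the libraries came from separate cultures. The annotation is a single list of exons that covers both groups at once, with hg19 positions and 0 columns of values per library. No level, depth or replicate error can therefore be given, EPZ015666 was not compared with DMSO, and being listed does not give an expression level.

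In a mutually exclusive pair, either of 2 neighbouring exons is spliced into the messenger RNA, and a stretch of the protein changes. The pyruvate kinase gene PKM uses exon M1 in adult muscle and brain and M2 in embryonic and tumour cells. Tropomyosins, which wind along actin filaments, combine such pairs with alternative first and final exons. Alpha-actinins cross-link actin, and the JNK kinases MAPK8 and MAPK9 signal stress.

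The forms are shown first, since the question is which of each pair the annotation lists for this glioma line. Sequences are GENCODE release 29 transcript sequence on GRCh38, 5' to 3' on the gene's strand, while all positions in the text are those of the deposited hg19 rows. In pairs of the same length the capitals mark the bases that differ between the forms of that gene. The PKM pair carries the muscle form M1 and the tumour form M2, which differed at 62 of 167 bases.
PKM M1: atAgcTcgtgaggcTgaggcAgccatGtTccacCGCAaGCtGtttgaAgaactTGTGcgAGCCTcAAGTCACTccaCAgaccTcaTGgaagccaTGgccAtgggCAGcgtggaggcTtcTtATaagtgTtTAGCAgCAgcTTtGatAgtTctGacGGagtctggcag
PKM M2: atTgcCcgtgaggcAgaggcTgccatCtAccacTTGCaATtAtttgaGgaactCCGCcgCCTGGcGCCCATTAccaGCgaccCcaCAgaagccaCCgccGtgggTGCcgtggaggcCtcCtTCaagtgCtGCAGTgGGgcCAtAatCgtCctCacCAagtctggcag

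TPM1 has an exclusive pair at exon 2, where 2a is the smooth muscle form, and another at exon 6. TPM2 and TPM3 have the pair at exon 6 only. These pairs are shown because the same place in 3 paralogs can be compared.
TPM1 2a: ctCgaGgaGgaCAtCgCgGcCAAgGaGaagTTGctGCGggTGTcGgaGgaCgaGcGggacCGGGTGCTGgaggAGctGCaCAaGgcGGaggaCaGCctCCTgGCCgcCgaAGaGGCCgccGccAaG
TPM1 2b: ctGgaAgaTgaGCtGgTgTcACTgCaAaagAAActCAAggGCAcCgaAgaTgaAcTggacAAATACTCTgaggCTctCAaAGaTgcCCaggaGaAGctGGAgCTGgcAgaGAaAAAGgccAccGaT
TPM1 6a: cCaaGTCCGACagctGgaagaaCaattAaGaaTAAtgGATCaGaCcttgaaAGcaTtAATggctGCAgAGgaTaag
TPM1 6b: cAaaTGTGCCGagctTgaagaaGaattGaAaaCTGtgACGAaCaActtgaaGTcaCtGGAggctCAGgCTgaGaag
TPM2 6a: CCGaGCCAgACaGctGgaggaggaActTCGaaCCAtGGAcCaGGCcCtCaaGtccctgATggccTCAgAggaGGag
TPM2 6b: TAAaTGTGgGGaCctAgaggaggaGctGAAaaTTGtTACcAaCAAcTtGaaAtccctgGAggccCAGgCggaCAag
TPM3 6a: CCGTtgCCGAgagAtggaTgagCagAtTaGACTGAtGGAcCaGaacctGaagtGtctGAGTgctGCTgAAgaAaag
TPM3 6b: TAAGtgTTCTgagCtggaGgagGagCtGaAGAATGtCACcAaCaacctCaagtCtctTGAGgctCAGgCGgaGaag

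The alpha-actinin forms differ in length, a longer non-muscle exon (NM) and a shorter smooth muscle exon (SM) in the calcium-binding end of the protein. Their capitals mark the differences from the same form of the other alpha-actinin gene. The second ACTN4 pair, 8a and 8b, is marked within the gene.
ACTN1 NM: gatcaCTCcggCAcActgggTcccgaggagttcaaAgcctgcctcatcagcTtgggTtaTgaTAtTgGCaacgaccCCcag
ACTN4 NM: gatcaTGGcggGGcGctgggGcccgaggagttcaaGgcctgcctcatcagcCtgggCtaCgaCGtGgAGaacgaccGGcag
ACTN1 SM: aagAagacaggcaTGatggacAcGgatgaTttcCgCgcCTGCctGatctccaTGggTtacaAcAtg
ACTN4 SM: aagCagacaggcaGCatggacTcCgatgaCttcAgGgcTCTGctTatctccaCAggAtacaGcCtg
ACTN4 8a: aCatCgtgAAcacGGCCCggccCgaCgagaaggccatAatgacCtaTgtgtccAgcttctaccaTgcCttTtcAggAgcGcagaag
ACTN4 8b: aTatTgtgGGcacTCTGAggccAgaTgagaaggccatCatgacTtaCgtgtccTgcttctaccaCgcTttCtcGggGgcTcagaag

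MAPK8 and MAPK9 exchange 6a and 6b inside the kinase domain.
MAPK8 6a: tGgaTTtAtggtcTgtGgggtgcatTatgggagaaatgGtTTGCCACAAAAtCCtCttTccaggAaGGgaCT
MAPK8 6b: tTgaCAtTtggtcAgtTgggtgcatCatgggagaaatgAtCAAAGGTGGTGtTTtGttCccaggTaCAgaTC
MAPK9 6a: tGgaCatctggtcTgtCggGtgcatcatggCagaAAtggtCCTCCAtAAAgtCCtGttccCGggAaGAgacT
MAPK9 6b: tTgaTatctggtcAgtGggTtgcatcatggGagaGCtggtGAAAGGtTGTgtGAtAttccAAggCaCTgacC

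Of the 10 pairs, 7 were listed with both forms side by side in the same isoform, joined by an intron, and each pair had at least 1 form listed. In the reference 7 of the 10 are never together in a transcript, and 4 of these 7 were listed side by side, against 8.84% of all 1606 reference pairs that are never together (142 pairs, 95% Wilson interval 7.55 to 10.3%). The other 3 of the 7 had 1 form only, against 37.4% of all such pairs. The other 3, both TPM1 pairs and the ACTN1 pair, stand together in at least 1 reference transcript, and all 3 were listed side by side, against 52.7% of 1645 such pairs, of which 21.5% had 1 form only. The annotation did not write any pair as 2 alternative isoforms. Among 11869 genes with at least 3 exons in an isoform, 0 had isoforms that swap an internal exon (0% of genes). Of 4791 genes with 2 or more distinct chains of exons, 0 had an isoform that left the common exon order before its last exon, and 0 had a second first exon. An annotation of this shape cannot show an exclusive choice by separate isoforms, so where both forms are listed it does not tell which was used.

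**Figure D1:**
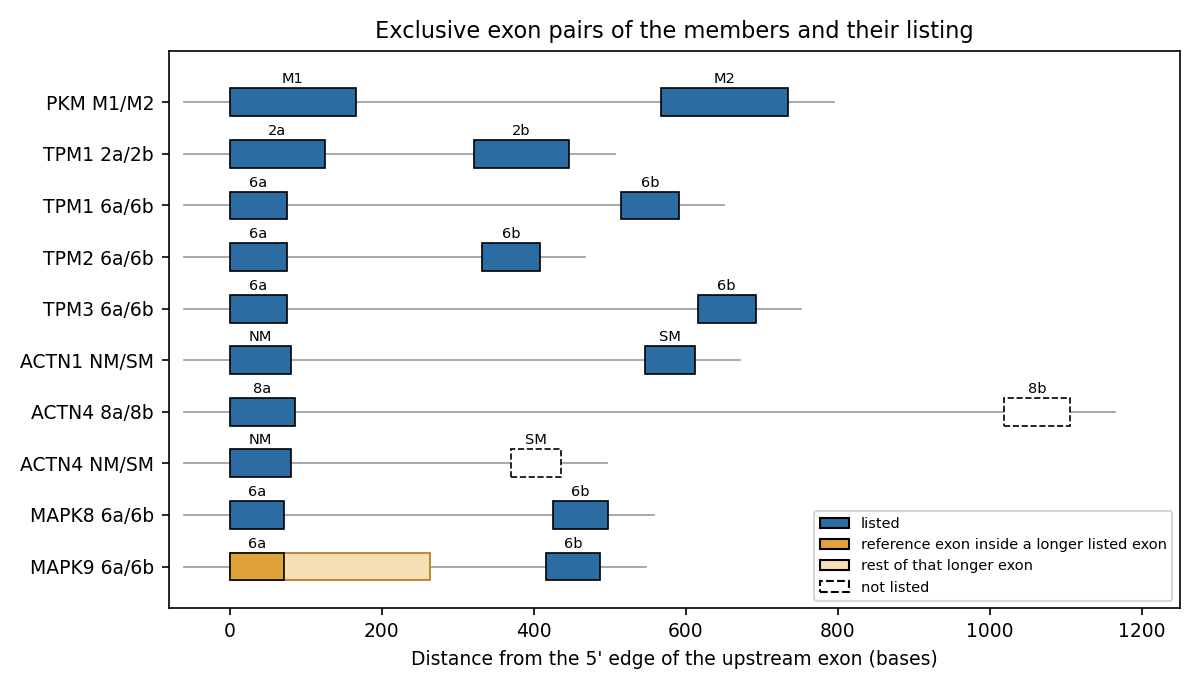
Map of the 10 exon pairs, with the distance in bases from the 5' edge of the upstream exon on the x axis and 1 row per pair. Filled boxes are listed exons, dashed boxes are reference exons that are not listed, and the pale box is the longer exon listed over MAPK9 6a. Both boxes are filled in blue in 7 of the 10 rows.

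For PKM, M1 (chr15:72495363-72495529) and M2 (chr15:72494795-72494961) were both listed, each 167 bases long, as exons 9 and 10 of 12. A 401-base intron joined them that is spliced in no reference transcript of the gene. The adult muscle and brain form and the tumour form thus stood in a single chain, which was listed as 2 identical isoforms. M1 is held by 6 and M2 by 4 reference transcripts, and 0 hold both. The listing of 4 other internal PKM exons differed from the reference. Exon 2 was 66 bases long and had a 5' edge found in no reference transcript. Exon 8 was 550 bases long and covered a 151-base exon, the 246 bases after it and a 153-base exon. Exon 7 was 263 bases where the reference has 271, and exon 11 was 160 bases where the reference has 182, each with the same 5' edge.

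TPM1 listed 2a (chr15:63335905-63336030) and 2b (chr15:63336226-63336351) in all 3 of its chains, 195 bases apart. Its exons 6a (chr15:63353397-63353472) and 6b (chr15:63353912-63353987) were likewise in all 3, 439 bases apart. The smooth muscle exon 2a was thus listed beside the form of other tissues. The introns inside both TPM1 pairs are spliced in the reference, where 1 transcript holds 2a with 2b and 3 hold 6a with 6b, none of them a CCDS transcript (the curated consensus coding set). TPM2 listed 6a (chr9:35685061-35685136), the fibroblast and smooth muscle form, and 6b (chr9:35684729-35684804), the skeletal muscle form, 256 bases apart. TPM3 listed 6a (chr1:154144505-154144580) and 6b (chr1:154143889-154143964), 540 bases apart. No reference transcript splices the TPM2 or the TPM3 intron between the forms.

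ACTN1 listed its NM exon (81 bases, chr14:69345706-69345786) and its SM exon (66 bases, chr14:69345175-69345240), 465 bases apart. There is 1 CCDS transcript of ACTN1 that holds both. ACTN4 differed: only the NM exon (chr19:39218586-39218666) was listed, and the 66-base SM exon was not. At its second pair ACTN4 listed 8a (86 bases, chr19:39200897-39200982) and not 8b. At both ACTN4 pairs the listed form was thus the upstream one alone, the non-muscle form in the first case, and neither its SM nor its 8b exon is in a CCDS transcript.

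MAPK8 listed 6a (chr10:49632131-49632202) and 6b (chr10:49632557-49632628), 354 bases apart, in 2 of its 3 chains. The other chain ended before the pair. MAPK9 listed 6b (chr5:179674439-179674510) exactly. Over 6a it listed a 264-base exon (chr5:179674663-179674926) that has the 5' edge of the 72-base exon 6a, runs through the next 126 bases and ends at the 3' edge of a 66-base reference exon. By length and both flanking introns MAPK9 therefore counts as 6b only, and by the 5' edge alone as both forms, which makes 8 of 10 pairs side by side. The rule by the 5' edge was added after this exon was seen.

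**Figure D2:**
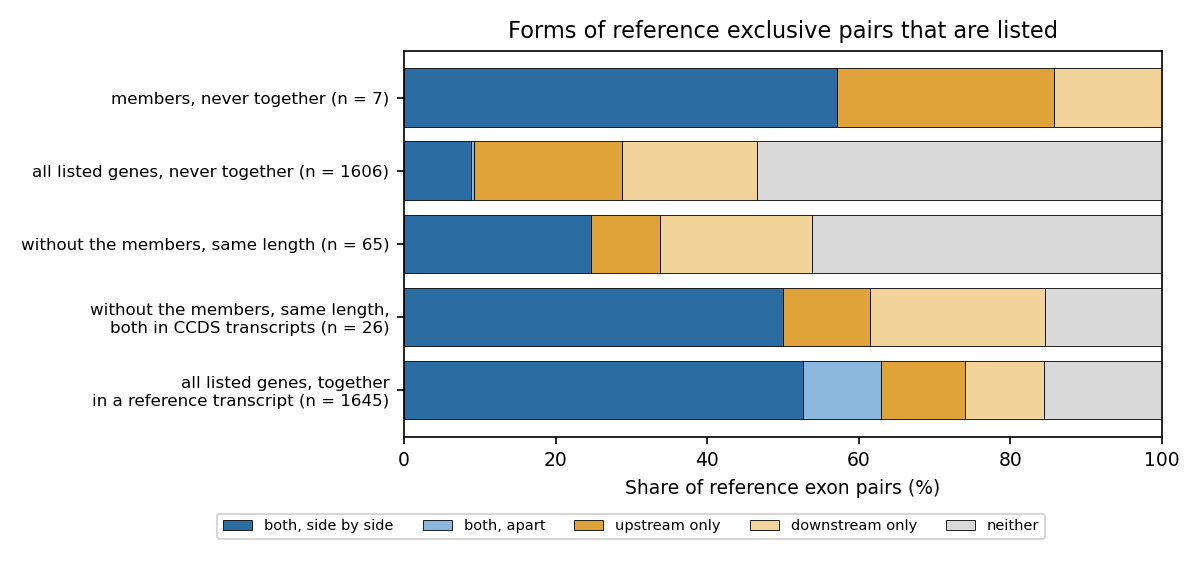
Share in percent of reference exon pairs by the forms listed, for the 7 member pairs never together in a reference transcript and for 4 sets of other or all pairs. Both forms stood side by side in 4 of the 7 member pairs, in 8.84% of all 1606 such pairs and in 50% of the 26 pairs of the same length that are in CCDS transcripts and not in the members.

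The share over all genes depends on which pairs are taken, and the definitions were compared with the listing already known: 13 were tallied, 7 of them other classes of pairs. Among pairs never together, both forms were side by side in 28.2% of 71 pairs of the same length and in 54.8% of 31 pairs that also have both forms in CCDS transcripts. In the last class the members had 4 of 5. A single form was listed in 29.6% and 32.3% of these classes, and in 2 of the 6 and 1 of the 5 member pairs in them. Without the members, that class gave 50% of 26 pairs (interval 32.1 to 67.9%). No test of the members against the background was made. Of all 1606 pairs, 857 had neither form listed, which includes genes listed only in part.

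The 8 listed gaps inside member pairs, with MAPK9's taken at 152 bases, ran from 152 to 540 bases, with a median of 378. All 8 were below the median of 1471 bases over the 138855 distinct introns of the annotation, of which 27.3% were no longer than 540 bases. In 16 same-length pairs of other genes, never together and listed side by side, the median gap was 105 bases. Over the 53 such pairs with exons of at least 20 bases, listed side by side or not, it was 764 bases. Without that least length there are 65 such pairs. The member gaps were thus not short beside those of the other listed pairs. The members listed 108 distinct introns. Of these, 99 are spliced in a reference transcript and 9 are not, and 4 of the 9 were the PKM, TPM2, TPM3 and MAPK8 gaps between exclusive exons. By length alone, 9 of the members' introns had a length found in no intron of the reference gene. Over all genes this held for 8.25% of 130058 compared introns, about the same share as 9 of 108.

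The forms at the same place were more alike between genes than within a gene in the tropomyosins. Exon 6b shared 77.6% of its bases between TPM1 and TPM2, 76.3% between TPM1 and TPM3 and 78.9% between TPM2 and TPM3. Exon 6a shared 68.4%, 64.5% and 64.5% in the same order. Within a gene 6a and 6b shared 56.6% in TPM1, 52.6% in TPM2 and 52.6% in TPM3. The JNK genes had the same order, with 79.2% for 6a and 77.8% for 6b between MAPK8 and MAPK9, against 61.1% and 63.9% within them. M1 and M2 of PKM shared 62.9%, 2a and 2b of TPM1 49.2%, and 8a and 8b of ACTN4 75.6%. Over the 53 same-length pairs of other genes with exons of at least 20 bases the median was 62.3%, with a range of 20.4 to 100%. Between the alpha-actinins, the NM exon shared 77.8% and the SM exon 72.7%.

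Of the paralogs, TPM4, ACTN2 and MAPK10 were listed and PKLR and ACTN3 were not. TPM4 has 1 exon of 76 bases at the place of exon 6 in its CCDS transcripts. It was listed, and it shared 73.7% of its bases with 6b of TPM1 and of TPM2 and 72.4% with 6b of TPM3, but 53.9%, 47.4% and 51.3% with their 6a. MAPK10 has a pair of 72-base exons at the place of the JNK pair, held by 103 and 17 reference transcripts and never together, and it too was listed with both side by side, 9246 bases apart. The MAPK10 exons shared 63.9% of their bases. Only the upstream one is in CCDS transcripts, and it shared 95.8% with MAPK8 6a and 61.1% with MAPK8 6b. The 66-base exon of ACTN2, the muscle alpha-actinin, was not listed, nor was either form of its 86-base pair. ACTN2 was listed with only 10 exons, against 21 in ACTN1 and in ACTN4, so these absences do not tell which form was used.

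The lengths set what a transcript with both forms would encode. When either form stood alone in a reference transcript of the gene, the number of codons before the first stop was the same for both forms of every same-length pair, for example 531 for PKM M1 and M2. With both in a row, PKM read 483 codons, and the first in-frame stop began at base 143 of M2. TPM1 with 6a and 6b read 218 codons in place of 284, TPM2 213 in place of 284, and TPM3 177 in place of 248. The stop began at base 16 of the TPM1 exon 6b and at base 1 of the TPM2 and TPM3 exons 6b, whose sequences above open with taa. ACTN4 with 8a and 8b, which were not listed together, would read 278 codons in place of 911. The other 5 pairs have lengths that are multiples of 3 and read through: TPM1 with 2a and 2b gave 326 codons in place of 284, ACTN1 914 in place of 892, ACTN4 933 in place of 911, MAPK8 408 in place of 384 and MAPK9 406 in place of 382. The ACTN4 SM exon was not listed, and MAPK9 6a stood only inside a 264-base exon. The counts for ACTN4 with NM and SM and for MAPK9 thus describe no listed chain. All codon counts follow from the reference sequences, and the annotation marks no coding sequence.

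**Figure D3:**
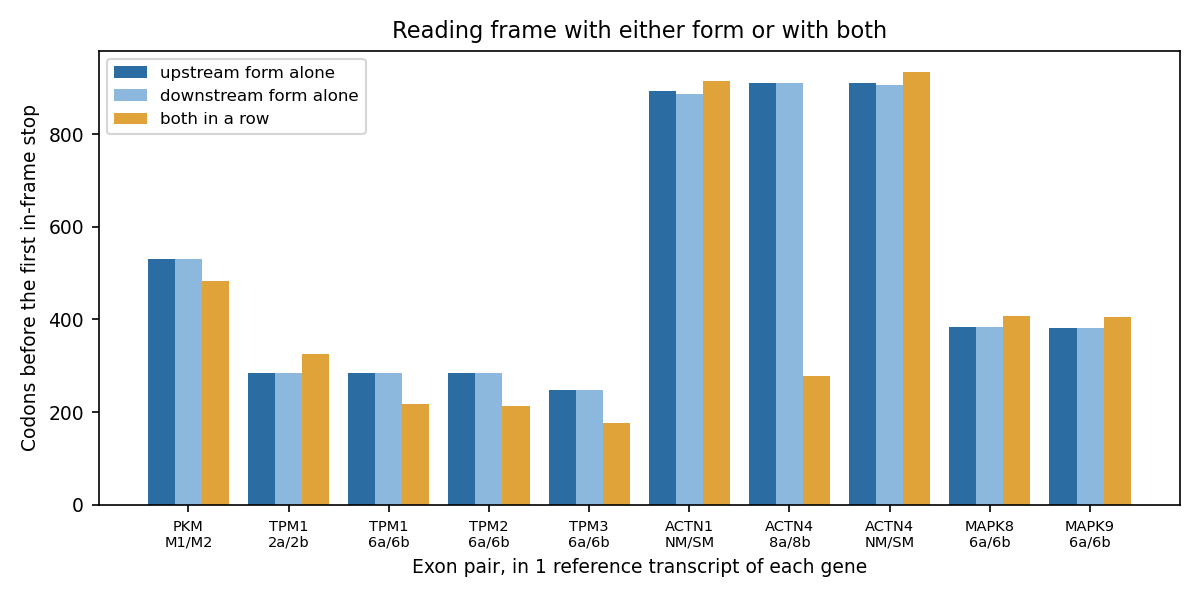
Codons before the first in-frame stop on the y axis, for each of the 10 pairs, with the upstream form alone, the downstream form alone or both in a row in 1 reference transcript of the gene. The bar for both forms is the lowest of the 3 for PKM, for the exon 6 pairs of TPM1, TPM2 and TPM3 and for ACTN4 8a/8b.

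Each member had 1 first exon, and 0 of the 4791 genes with 2 or more distinct chains had a second one. TPM1 and TPM2 listed the first exon of the long, high molecular weight forms. TPM3 listed the first exon 1b of the short non-muscle forms, and not the first exon of its muscle form, which ends 8914 bases upstream in the reference. Other reference first exons were not listed either, 1 ending 5764 bases downstream in TPM1 and 1 ending 4874 bases downstream in TPM3. The 1 start listed for TPM3 was thus the non-muscle one, beside both forms of exon 6. A list with 1 first exon per gene does not tell whether another start was used.

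Over the members there were 16 final exons, told apart by their 5' edge. More than 1 was listed in 5 of the 8 genes, TPM1, TPM2, TPM3, MAPK8 and MAPK9, against 22.3% of the 12462 genes with introns. TPM1 had 3 ends. Its most downstream final exon (chr15:63363289-63364088), the smooth muscle and non-muscle end 9d, was listed with the 79-base exon 9a of striated muscle (chr15:63356263-63356341) before it. The 6947-base intron that joined 9a to 9d is in no reference transcript. The other 2 TPM1 ends were exon 8 extended without splicing, to 3518 and 8057 bases, and both stopped where a reference final exon stops. TPM2 had the 172-base exon 9d (chr9:35681989-35682160) in 3 isoforms and exon 8 extended to 1385 bases in 1. TPM3 had 9d at 1357 bases in 1 isoform, where 79-base exon 9a stood before it, exon 9a extended to 1918 bases, and exon 8 extended to 3004 bases or, from a later start, to 3000, all 3 stopping at the same base.

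**Figure D4:**
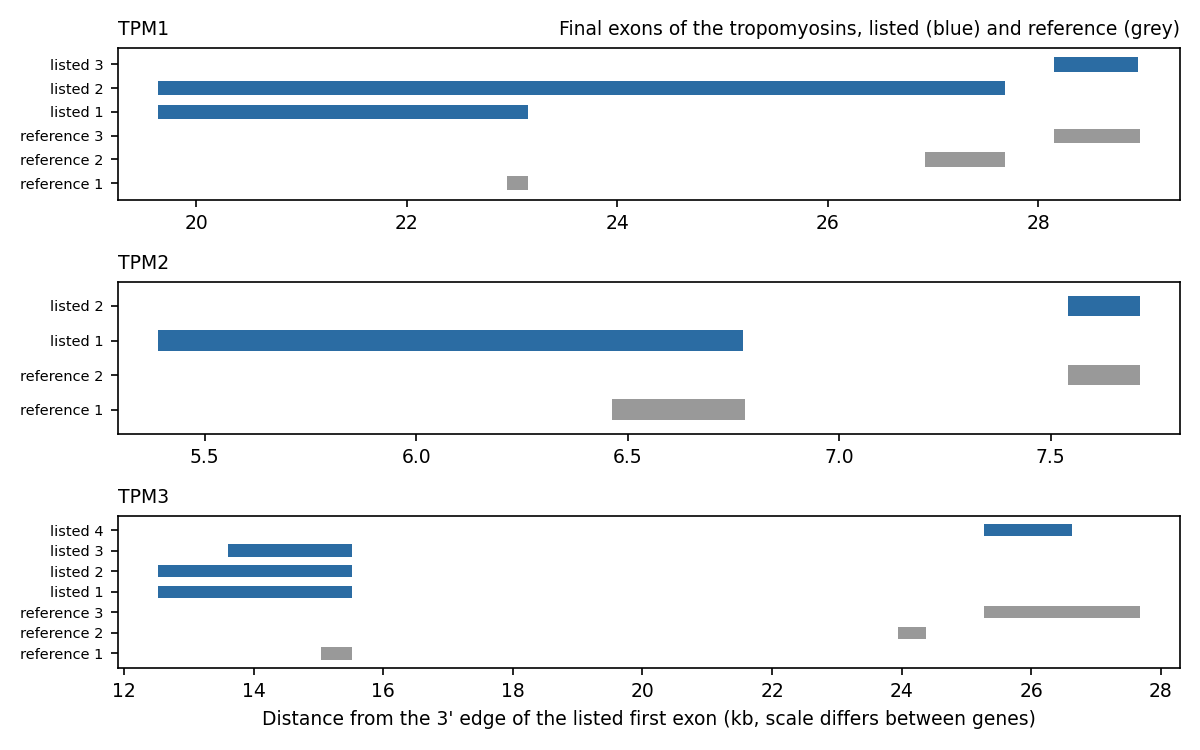
Final exons of TPM1, TPM2 and TPM3, listed ones in blue and reference CCDS ones in grey, by distance in kb from the 3' edge of the listed first exon. The listed exons that extend exon 8 are longer than any reference final exon of the same gene, up to 8057 bases in TPM1, and end within 5 bases of the end of a reference final exon.

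Of the remaining members, PKM had 1 final exon of 724 bases. ACTN1 ended in a 159-base exon that is internal in the reference, 2396 bases short of the nearest CCDS end. ACTN4 had 1 final exon with 2 ends, 915 and 1186 bases long. MAPK8 had 3 ends, each in an exon that is internal in the reference. MAPK9 had the same final exon at 2932 and 3383 bases, and 1 further isoform in which 6b ran on to 1482 bases and ended there. An isoform was listed more than once in PKM, TPM2, ACTN4 and MAPK9, 4 of the 8 genes, against 61.5% of genes with introns.

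Other genes with textbook exclusive pairs were read in the same way, from pairs with both forms in CCDS transcripts and lengths that differ by a multiple of 3. Of 27 genes, 22 were listed and 19 had such a pair, 22 pairs in all. Both forms stood side by side in 12, only the upstream form in 2, only the downstream form in 4 and neither in 4. Not all of these pairs are strictly exclusive in the reference, and they were split on this after the listing was known. Of 15 pairs never together in a reference transcript 7 were side by side, against 31.4% of 118 such pairs over all genes, and of 7 pairs that stand together in at least 1 transcript 5 were, against 56.1% of 586. FYN, SLC25A3, H2AFY and TCF3, whose forms are never together in the reference, listed both side by side, as did U2AF1, whose forms stand together in 3 reference transcripts, and MAPK14 listed the downstream form only. Of 13 splicing regulators described for such exons, 12 were listed. PTBP1 and HNRNPA2B1, which act on the PKM pair, had 4 isoforms in 3 distinct chains each. HNRNPA1 had 6 isoforms in 5 distinct chains, and ESRP1 was not listed. Marker lists gave 5 of 7 glioma genes, with GFAP and SOX2 not listed, 3 of 11 muscle genes (CNN1, ACTA2 and SMTN) and 5 of 5 neuronal genes. No share of listed genes over all reference genes is given beside these counts of regulators and markers, so they do not tell the cell type. Listing of a muscle form of a member was not tested against these markers.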

How the data were processed

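The deposited file is an exon annotation whose 2 numeric columns are exon start and end positions, which are neither counts nor levels. Its label gives the cell line, both treatments and the words DI and Consensus Coding Isoform, with DI not spelled out. It covers both groups together, and its positions name no library. Tools named in the submitters' processing notes, with no role for each, are RSEM, DESeq 1.10.1, bedtools 2.20.1, Bowtie 1.0.1 and STAR 2.4.1d; builds are hg19 and GRCh37. The planned test between groups was not run, and the depth is unknown.

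A new isoform began at each change of parent or restart of the exon order; of overlapping neighbours the later was kept. Reference pairs are internal exons that stand alone between the same edges in different GENCODE 29 transcripts, at least 30 bases apart. For the pairs, listed exons were matched by length and both flanking introns, not by position, since the builds differ. Other exons, introns and ends of the members were compared by position after a single shift per gene. That shift was the most common distance between listed and reference exons of the same length. The members, named genes and lists were chosen with earlier results of these data known, and the 30-base gap, the choice among overlapping exons and the classes of pairs after listings had been tallied.

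Intervals cover counting error only and treat pairs as independent, although the 1606 pairs never together came from 1067 genes and some share an exon. In a simulation of 200 genes with planted listings, 50 of 50 of each of 4 kinds were recovered, which checks the code only. Python 3.11.15, numpy 2.4.6 and scipy 1.17.1 were used.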

Additional observations from a re-analysis of the deposited data

How the results depend on the processing

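No paired analysis was possible because the annotation holds no values per library. The count of 7 member pairs with both forms side by side was also 7 with 1 flanking intron, by length and order, with isoforms split by parent and with the earlier overlapping exon, and 8 by the 5' edge alone; at least 1 form was listed in 10 of 10 each time. Swapped pairs numbered 0 in all 3 alternatives, and the members had 8 first exons and 16 final exons, or 14 when told apart by overlap. The share of all reference pairs changed most with the pairs taken. Both forms side by side, 1 form and neither made up 8.84%, 37.4% and 53.4%. They made up 20.3%, 33.4% and 46% with basic transcripts only, 11.1%, 41.2% and 46.6% by the 5' edge, and neither form 50.2% with 1 flanking intron. The classes were chosen after the listing was seen. For forms of the same length the shares were 28.2%, 29.6% and 42.3%, with both in CCDS transcripts as well 54.8%, 32.3% and 12.9%, and together or not 34.9%, 26.4% and 36.8%. For pairs together in a reference transcript they were 52.7%, 21.5% and 15.6%. For CCDS pairs side by side and neither were 21.8% and 40.8%, and with lengths differing by a multiple of 3 the shares were 31.4%, 32.2% and 35.6%. For that length rule alone, 11.4% were side by side. Any gap and every overlapping choice gave 8.77% and 7.7% side by side. These shifts follow from which pairs each definition admits or how an exon is matched.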
